A study of Taeniopygia guttata with 21 samples.

Results

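Cell division and DNA replication genes were followed across the skin of zebra finch (Taeniopygia guttata) embryos. They were taken by symbol, as the rows whose symbols begin with the usual stems of this machinery. The stems were MCM, ORC, RFC, CDC, CDK, cyclins A, B, D and E, AURK, BUB, CENP, PLK, NCAP, RRM1 and RRM2. Named mitotic kinesins, NUF2, NDC80, PCNA, TOP2A and MKI67 were in the pattern too. The mean over the 21 libraries had to be at least 10. The pattern matched 85 of 18202 genes in the table, no matching row fell below the mean of 10, and all 85 entered the tests. The member nearest to that minimum was CDK3, with a mean of 17.6. Only 8546 genes in the table had a symbol, and the 9656 without one could not match. The members are therefore not the whole machinery. Among the genes not found by symbol were CDK2, CDK4, CCNB1, AURKA, AURKB, MKI67, MCM7 and CDC6. By role, 62 of the 85 belonged to 7 lists of cell cycle machinery, called core members here. The other 23 carried a matching symbol but were on none of these lists, among them effectors of the GTPase CDC42 and kinases of transcription. Being outside the core does not mean that a member, such as CDK7 or CDC34, has no part in the cell cycle.

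The study looked for molecules restricted to presumptive colour domains in Estrildid finch skin. All samples were skin of wild type embryos at stage HH28, from incubated eggs of captive birds, and 10 ng of total RNA was amplified with a low-input kit before sequencing. There were 3 libraries from each of 7 locations, which were dorsal anterior, dorsal saddle and dorsal posterior skin (9 dorsal libraries) and ventral anterior, ventral-most, flank and ventral posterior skin (12 ventral libraries). Each location carried the replicate numbers 3, 8 and 11. The labels give neither the sex of an embryo nor whether libraries came from separate embryos, so p-values measure only the spread between these libraries. Libraries held 12852638 to 22994609 reads (median 18639448), and levels are normalised read counts, which depend on transcript length and are compared only within a gene. All 12 epidermal and all 15 dermal fibroblast markers in the table had reads in both dorsal and ventral skin.

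Cells copy their genome once per cycle. Origin recognition proteins mark the start sites, MCM helicases are loaded there in the first gap phase, and the kinase CDC7 with cyclin-dependent kinases fires the origins. The clamp PCNA and its loader RFC then hold the polymerases on DNA. D-type cyclins couple this entry to signals from outside the cell, and cyclins A and B with CDK1 drive mitosis, in which condensins, kinetochores and kinesins compact and move the chromosomes until the anaphase-promoting complex releases them. In embryonic skin both epidermis and dermis divide, and local differences in division accompany the laying out of feather tracts.

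Across the 7 locations 6 of 62 core members were called in the fit without a block for replicate number, the D-type cyclin genes, CDK6, PCNA, CDC7 and NUF2. Limma, on log2(value + 1) with p-values adjusted over 14005 genes and a threshold of 0.05, called 10 of 85 members for any difference among the locations, against 15.4% of all genes tested. These were CCND2, CDK15, CDC7, CDK14, CDK19, CCND1, PCNA, CDK6, NUF2 and CDC42EP3. With the replicate number as a block in the model the count was 24, against 30.0% of all genes. The block added the core members CDK1 (limma adjusted p = 0.00868), CCNB2 (0.00815), CENPK (0.00160), KIF2C (0.00209), CDC20, PLK4, ORC5, RFC3, CDCA4 and CCNA1. The median distance between the highest and the lowest location mean was 0.48 on the log2 scale for core members, 0.57 for the other members and 0.72 for all genes tested, which include many at low levels. Of the 62 core members, 4 differed by at least 1 log2 unit, namely CCNA1, CCND1, CCND2 and CDK6, as did 39.1% of all genes. CCNA1, a cyclin gene known in mice for its role in male germ cells, was low, with dorsal values of 8.46 to 84.7 and ventral values of 4.99 to 104, and did not pass the test (limma adjusted p = 0.0548, or 0.0330 with the block). With fewer libraries 3, 1 and 7 members were called, without replicate number 3, 8 and 11 in turn. These fits had no block, so differences between the replicate numbers stayed in the spread. Without number 3 CCND1, CDK14 and CDK15 remained, and without number 8 CCND2 alone. The limma adjusted p without number 8 was 0.214 for CDC7, 0.530 for PCNA, 0.522 for CDK6, 0.287 for NUF2, 0.130 for CDK14 and 0.118 for CDK15. Without number 3 it was 0.0575 for CDC7, 0.165 for PCNA, 0.308 for CDK6 and 0.407 for NUF2, and without number 11 NUF2 was at 0.0800. CDK19 was lost in all 3 (0.0616, 0.154 and 0.166), as was CDC42EP3 (0.236, 0.451 and 0.296).

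Within each role the mean level over 21 libraries spanned a wide range, given here to show where each group sits and not as a comparison of genes of different length. Licensing genes ran from 842 (ORC1) to 10273 (MCM2), and clamp and nucleotide genes from 423 (RRM2B) to 22867 (PCNA). Cyclin and CDK genes ran from 33.7 (CCNA1) to 11236 (CCNB2), and mitotic kinase, checkpoint and anaphase-promoting complex genes from 278 (CDC14A) to 10370.4 (CDC20). Centromere genes ran from 38.0 (CENPV) to 6182 (CENPK), chromosome structure genes from 887 (NCAPG2) to 15562 (TOP2A), and kinesin genes from 2436 (KIF18A) to 6359 (KIF4A). Pathway genes outside the symbol pattern were 23 S phase entries, 22 genes of mitosis and 10 genes of cycle exit and its drivers. Of these CHAF1B, CKAP2 and the CDK1-inhibiting kinase gene WEE1 were called among the locations, where 15.4% of all genes tested were called.

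CCND1 and CCND2, which encode the D-type cyclins that activate CDK4 and CDK6, peaked in different ventral locations. Coordinates are those of the deposited table, whose genome build is not given in the sources used here. CCND1 (GSZG0011417, chromosome 5, 5242706 to 5257697) had normalised read counts of 4395, 7233 and 7155 in ventral anterior skin in replicates 3, 8 and 11. In flank skin it had 4801, 4750.0 and 4548, in ventral-most skin 4273, 4037 and 4239, and in ventral posterior skin 3275, 2994 and 3930.3. It had 3945, 4243 and 3859 in dorsal anterior skin, 2386, 2387 and 3968 in the saddle and 3350.1, 3249.9 and 2656 in dorsal posterior skin. Ventral anterior replicates 8 and 11 were above every other library, while replicate 3 lay above the ventral-most and below the flank libraries.

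CCND2 (GSZG0005180, chromosome 1A, 66648167 to 66675194) was highest in the flank, with 6269, 4907 and 4980.1. It had 4332, 3823 and 4428 in ventral-most skin and 3954, 3979 and 4333 in ventral posterior skin. The ventral anterior libraries, at 2621, 2361 and 2772, lay among the dorsal ones, which had 3133, 2462 and 3204 in anterior, 2473, 2150.4 and 3119 in saddle and 3029, 2365 and 3273 in posterior skin. The 9 libraries from the flank, ventral-most and ventral posterior locations were all above the 12 from ventral anterior and dorsal skin. From low to high, the location means of CCND2 ran saddle, ventral anterior, dorsal posterior and dorsal anterior at the low end, whose library ranges overlap, then ventral posterior and ventral-most, which also overlap, and the flank. For CCND1 the order was saddle, dorsal posterior, ventral posterior, dorsal anterior, ventral-most, flank and ventral anterior. Over the locations limma gave an adjusted p of 0.000435 for CCND2, which was 0.0644 without replicate number 3, and of 0.00603 for CCND1, which was 0.433 without number 8.

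The ratio of CCND1 to CCND2 within a library set the ventral anterior location apart from the other ventral ones. It was 1.68 to 3.06 in ventral anterior skin, 0.957 to 1.06 in ventral-most skin, 0.766 to 0.968 in the flank and 0.752 to 0.907 in ventral posterior skin. Dorsal anterior libraries had ratios of 1.20 to 1.72, saddle libraries 0.965 to 1.27 and dorsal posterior libraries 0.812 to 1.37. The ventral anterior range did not overlap that of any other ventral location and overlapped the upper end of the dorsal anterior one. The ratio was chosen after the values were seen and was not tested.

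**Figure D1:**
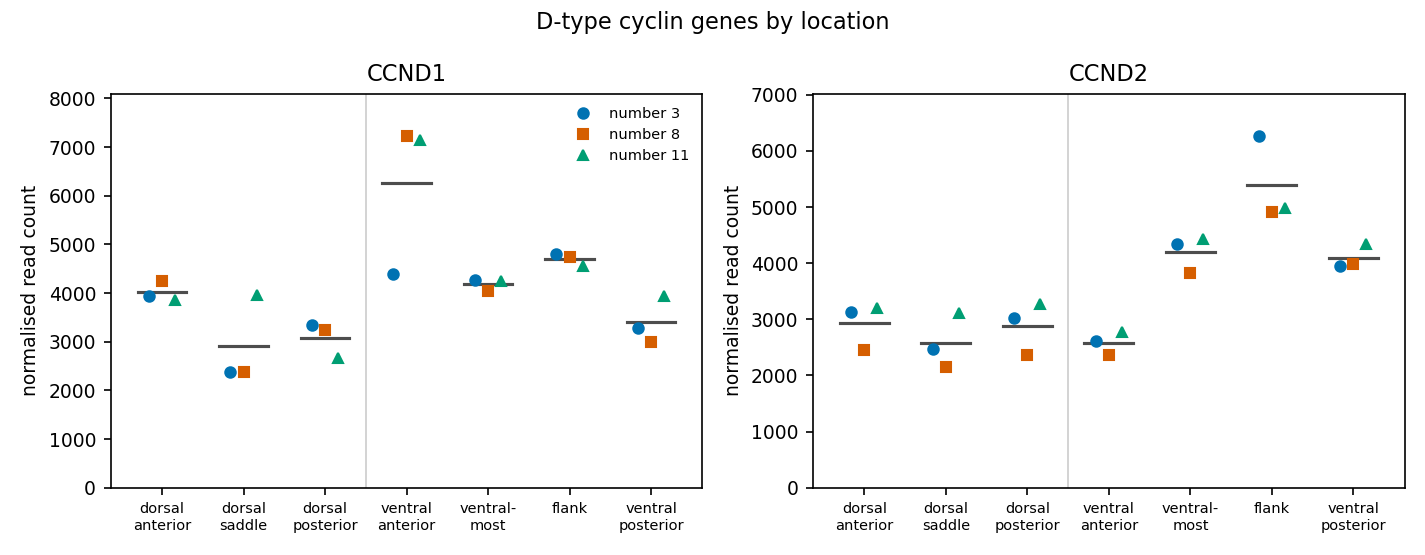
Normalised read counts of CCND1 (left) and CCND2 (right) in every library at the 7 locations, dorsal to the left of the vertical line, with a horizontal bar for the location mean (n = 3) and a symbol for each replicate number. CCND1 was highest in ventral anterior replicates 8 and 11, whereas CCND2 there lay among the dorsal libraries and was highest in the flank.

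Ventral anterior and ventral posterior skin were compared for genes graded along the belly. Limma called 3 of 85 members, against 1.76% of all genes tested, and with 1 higher and 2 lower they had no shared direction. CCND1 was higher anteriorly (log2 fold change 0.85, SE 0.20, limma adjusted p = 0.0316) and CCND2 lower (log2 fold change -0.66, SE 0.16, limma adjusted p = 0.0384). CDC7 (GSZG0013301, chromosome 8, 10921016 to 10933370), the kinase that fires origins, was lower as well (log2 fold change -0.60, SE 0.14, limma adjusted p = 0.0352). Its values were 736, 777 and 763 in ventral anterior skin and 1207, 1235 and 1021 in ventral posterior skin. For CCND2 and CDC7 the 3 anterior and 3 posterior libraries did not overlap in either gene, and for CCND1 all 3 anterior libraries, the lowest at 4395, were above the posterior ones, the highest at 3930.3. The other 59 core members lay between -0.67 (CCNA1) and 0.69 (CDK6) on the log2 scale. The median over the core was 0.045, and over all genes tested it was -0.00059. Among mitotic genes CDK1 had 0.097, CCNB2 0.33, PLK1 0.21 and TOP2A -0.14, and MCM2 had 0.044, none of them called.

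CDK6, a kinase partner of the D-type cyclins, was called in this comparison with the block (0.69, SE 0.18, limma adjusted p = 0.0356, and 0.109 without the block). It had 1132, 1086 and 755 in ventral anterior skin and 543, 676 and 596 in ventral posterior skin, and the 3 ventral posterior values were the lowest of all 21. CDK14, described below with the other kinases, was also called with the block (adjusted p = 0.00583). With the block 5 members were called, against 4.21% of all genes. With 1 replicate number left out, and so 2 libraries per location, none of the 3 calls without the block was made, while the fold changes kept their direction. These fits had no block either. Without numbers 3, 8 and 11 the log2 fold change was -0.70, -0.62 and -0.67 for CCND2 and -0.54, -0.57 and -0.69 for CDC7. For CCND1 it was 0.64 without number 8, 0.85 without number 11 and above its value in all libraries without number 3. CCND1 then had limma adjusted p-values of 0.0553, 0.701 and 0.109, CCND2 of 0.214, 0.304 and 0.191, and CDC7 of 0.153, 0.589 and 0.135 without numbers 3, 8 and 11. Skeletal muscle markers had a median of 2.32 in this comparison with 0 of 12 called, and their summed level was 3722 to 12511 anteriorly and 245 to 6269.9 posteriorly. Their part in these results was not tested.

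Flank skin was compared with the other 3 ventral locations, and limma called 2 of 85 members, both higher, against 3.05% of all genes tested. CCND2 was higher (log2 fold change 0.60, SE 0.13, limma adjusted p = 0.0158), as was PCNA (log2 fold change 0.50, SE 0.10, limma adjusted p = 0.0106), the sliding clamp of the replication fork. PCNA (GSZG0007288, chromosome 22, 593426 to 598007) had 31471, 32685 and 23894 in the flank. Its 9 other ventral libraries ranged from 16277 in ventral anterior skin to 24289 in ventral-most skin. Flank replicates 3 and 8 were above all other libraries, and replicate 11 was just below the highest ventral-most one. With the block CDK6 was called too (0.58, SE 0.14, limma adjusted p = 0.0224), with 1318, 1286 and 1099.6 in the flank, and ORC5, a subunit of the origin recognition complex, was lower (-0.42, SE 0.096, adjusted p = 0.0133). That made 4 members, against 7.29% of all genes.

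With fewer libraries and no block the flank calls were not made without number 3 or 8, and were made without number 11. CCND2 had a log2 fold change of 0.49 without number 3 and 0.61 without number 8 (limma adjusted p = 0.324 and 0.160). PCNA had 0.44 and 0.41 (0.161 and 0.490). The median log2 fold change in the flank was 0.077 over the core and -0.0011 over all genes tested, and 19 of 62 core members were below 0. CCND1 (0.089), MCM2 (0.14), CDK1 (0.19), NDC80 (-0.036) and TOP2A (0.022) were not called. Endothelial markers had a summed level of 1718 to 4888 in the flank, with 1 of 7 called lower. Their sums were 3668 to 5768 in ventral anterior, 5988 to 6252 in ventral-most and 3307 to 4374 in ventral posterior skin. Neuronal markers had sums of 4132 to 7038 in the flank and at most 2995 in the other ventral libraries. Cartilage markers had 2038 to 3447 in the flank and at least 4615 in the other ventral libraries. The part of any of these in the results was not tested.

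Across the body axis from back to belly, limma called 6 of the 62 core members (9.68%) lower in dorsal than in ventral skin and 0 higher in the fit without the block. Over all 85 members 3 were higher and 10 lower. The background was 17.2% of all genes tested, 9.31% higher and 7.89% lower. The 9.68% of the core was near the background share called lower and below the 17.2% called in all. With the replicate block 7 members were higher and 21 lower, against 15.3% and 13.9% of all genes, or 29.2% in all, and of the core 3 were then higher (RFC2, RRM2B and CDCA4) and 16 lower. The fold changes were small, with a core median of -0.10 on the log2 scale against 0.0012 for all genes, and 48 of 62 core members were below 0, as were 49.8% of all genes tested. In such pieces of tissue fewer cells of a type and less RNA per cell cannot be told apart.

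Of the called core members the D-type cyclin genes had the largest fold changes. CCND2 averaged 2801 ± 431 dorsally (SD, n = 9) and 4063 ± 1105 ventrally (SD, n = 12) (log2 fold change -0.50, SE 0.085, limma adjusted p = 0.000477), and CCND1 averaged 3338 ± 719 dorsally (SD, n = 9) and 4636 ± 1311 ventrally (SD, n = 12) (log2 fold change -0.46, SE 0.11, limma adjusted p = 0.00555). Dorsal and ventral libraries overlapped for both, CCND2 through the ventral anterior libraries alone. CDK1, the kinase that drives entry into mitosis, ranged from 6252 to 11727 (median 8626) in the 9 dorsal libraries and from 8009 to 13403 (median 11037) in the 12 ventral libraries (log2 fold change -0.32, SE 0.11, limma adjusted p = 0.0449). CCNB2, which encodes a cyclin partner of CDK1, had a like difference that passed only with the block (-0.29, SE 0.13, limma adjusted p = 0.133, and 0.00956 with it). CCNA2 (-0.099), CCNE1 (0.082), CCNE2 (-0.14), CDC25A (-0.091) and CDK6 (0.0022) did not pass with or without the block.

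Among replication genes CDC7 was lower dorsally, ranging from 768 to 1167 (median 887) in the 9 dorsal libraries and from 736 to 1575 (median 1196) in the 12 ventral libraries (log2 fold change -0.27, SE 0.076, limma adjusted p = 0.0183). The range of the dorsal libraries lay inside that of the ventral ones, as the ventral anterior libraries were 3 of the 4 lowest of all 21. The other 14 licensing members were not called. MCM2, MCM3 and MCM4, subunits of the replicative helicase, had log2 fold changes near 0, of 0.0031, -0.0018 and -0.0087 with SEs of 0.14, 0.14 and 0.079, and MCM5 had -0.12. In the clamp and nucleotide list limma called 0 of 8, against 17.2% of all genes tested. The count was 3 with the block, against 29.2%. PCNA had 0.024 and RRM2, a subunit of ribonucleotide reductase, had 0.073. With the block the clamp loader gene RFC5 was lower (-0.25, limma adjusted p = 0.0159), while RFC2 (0.27, 0.0476) and the p53-inducible reductase subunit gene RRM2B (0.27, 0.0341) were higher.

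Of 7 centromere and kinetochore genes 2 were called lower dorsally, against 7.89% of all genes tested. NUF2 (GSZG0013483, chromosome 8_random, 2698726 to 2709623), which encodes a subunit of the NDC80 complex that grips microtubules, ranged from 1524 to 2654 (median 2139) in the 9 dorsal libraries and from 1999 to 3658 (median 2756) in the 12 ventral libraries (log2 fold change -0.43, SE 0.097, limma adjusted p = 0.00448). Its partner NDC80 had -0.20 (SE 0.13, limma adjusted p = 0.357) and was not called with the block either (0.134). CENPK (GSZG0018029, chromosome Z, 50854326 to 50871444), a subunit of the inner kinetochore, ranged from 4214 to 6871 (median 5618) in the 9 dorsal libraries and from 5465 to 8292 (median 6444) in the 12 ventral libraries (log2 fold change -0.23, SE 0.079, limma adjusted p = 0.0485). It lies on the Z sex chromosome, and the part of embryo sex in its difference was not tested.

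The mitotic kinesin list and the list of mitotic kinase, checkpoint and anaphase-promoting complex genes had no called member without the block. Nearly all members of both lists lay below 0. The 6 mitotic kinesin genes had log2 fold changes from -0.36 (KIF2C, a microtubule depolymerase) to -0.12 (KIF11, which separates spindle poles), all below 0, with a median of -0.23. With the block KIF2C (limma adjusted p = 0.000429), KIF4A (0.0130) and KIF15 (0.0276) were lower, and KIF20A was at 0.0577. The second KIF2C entry in the table, on unplaced sequence, was called lower without the block (-0.50, limma adjusted p = 0.0269). DESeq2 called KIF20A without a block. Of 10 mitotic kinase, checkpoint and anaphase-promoting complex genes 9 were below 0, with a median of -0.15. With the block 4 were called lower, against 13.9% of all genes tested. These were the mitotic kinase gene PLK1 (-0.23), the complex's activator gene CDC20 (-0.22) and its subunit genes CDC27 (-0.18) and CDC16 (-0.16). The checkpoint kinase gene BUB1 had -0.098 and was not called.

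In the chromosome structure list TOP2A, the topoisomerase that untangles sister chromatids, ranged from 11583 to 16599 (median 13442) in the 9 dorsal libraries and from 11461 to 24768 (median 16567) in the 12 ventral libraries. Its log2 fold change of -0.27 passed with the block (limma adjusted p = 0.0194) and not without it (0.101). The condensin genes NCAPG (-0.092), NCAPD2 (-0.017) and NCAPG2 (0.13) did not pass in either fit. CDCA4, a regulator of E2F-dependent transcription, was higher dorsally with the block (0.20, adjusted p = 0.0187).

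**Figure D2:**
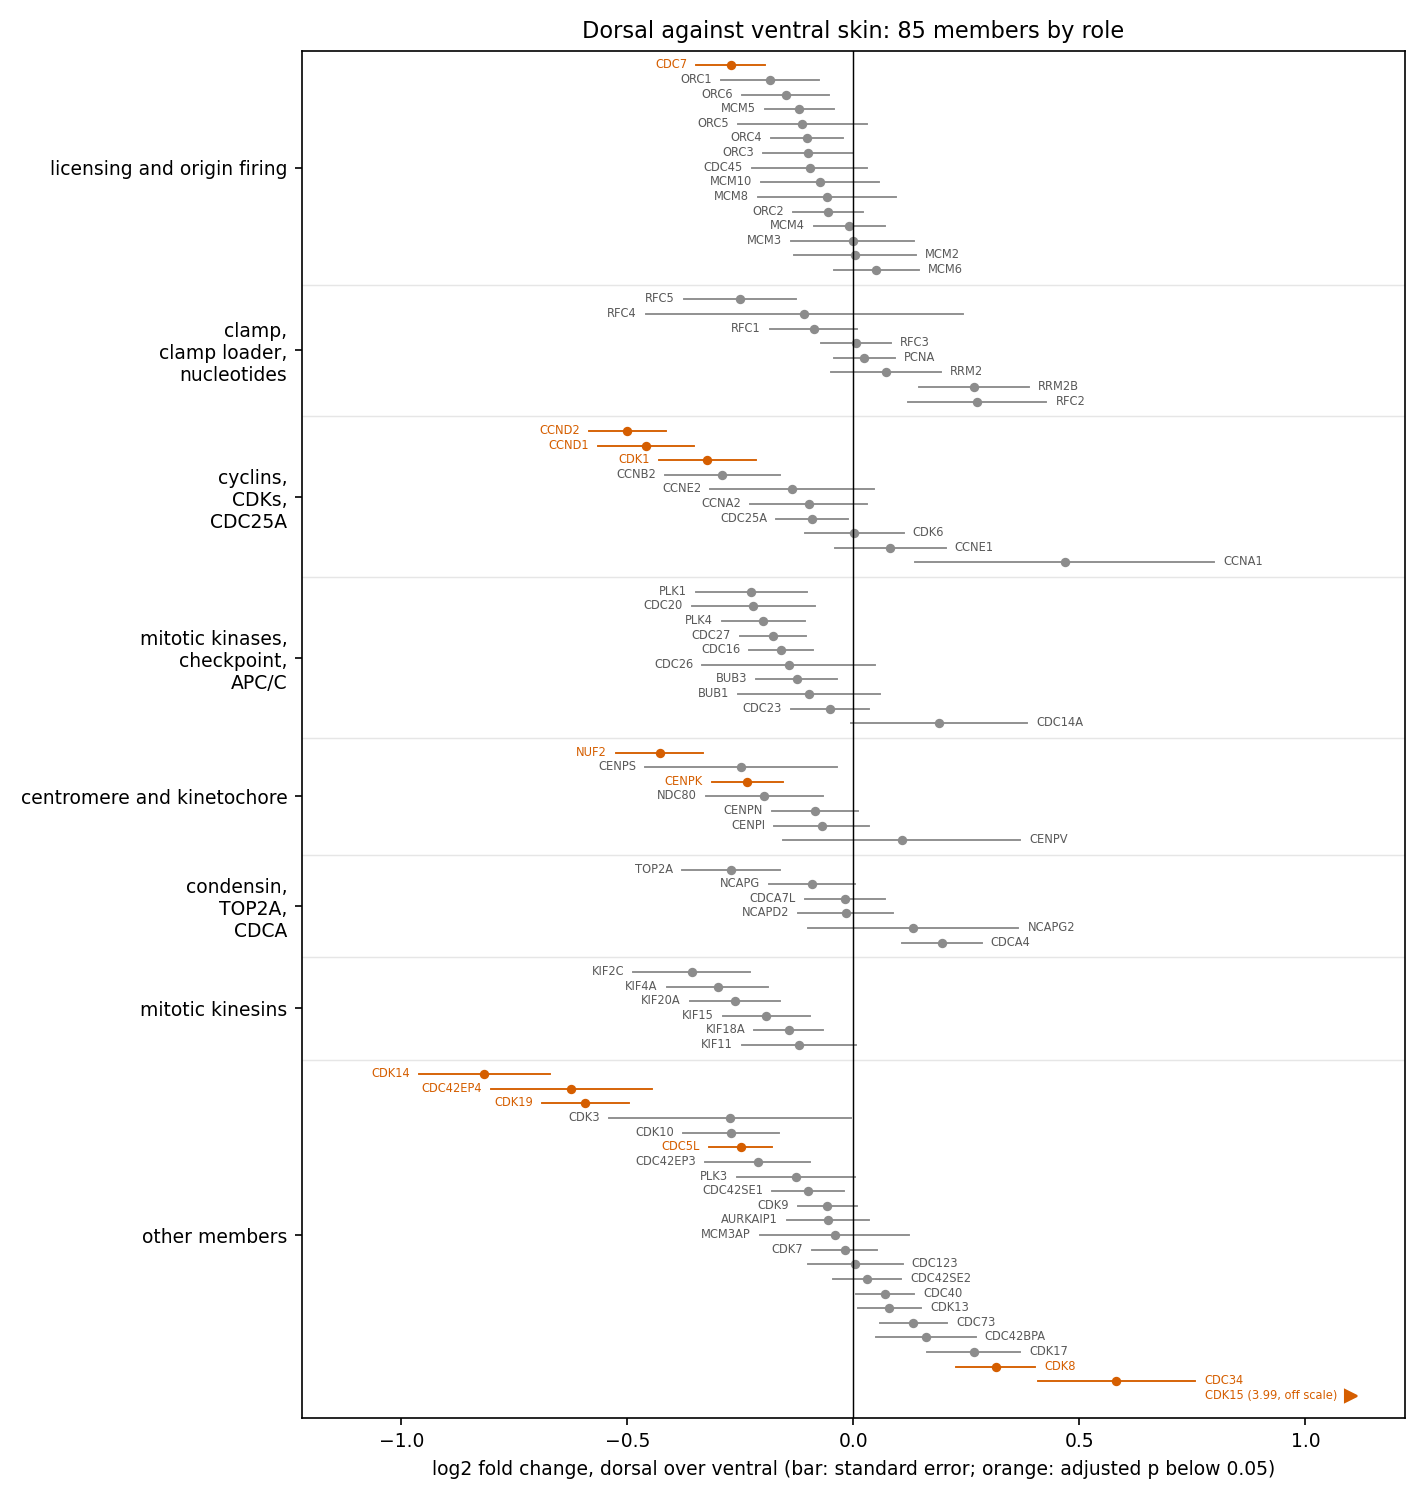
Log2 fold change of dorsal over ventral skin for the 85 members, grouped by role and sorted within a group, with bars for the standard error and orange for a limma adjusted p below 0.05. All 6 core members called in this fit, which has no block, lie to the left of 0, and the 3 called to the right are CDC34, CDK8 and CDK15, the last off the scale at 3.99.

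Several of these calls were not made with fewer libraries, mostly at fold changes close to those of all 21. The fits with fewer libraries had no block. CCND2, CDK14, CDK15 and CDK19 stayed called without any 1 replicate number. CCND1 was not called without number 8 (log2 fold change -0.44, limma adjusted p = 0.128), and NUF2 was not called without number 3 (-0.42, 0.0930). CDK1 was not called without number 3 (-0.26, 0.386) or 11 (-0.30, 0.134), without the flank (-0.28, 0.125), by edgeR (0.0639) or with no filter on low values (0.0534). CENPK was not called in the same 5 settings or without number 8, with adjusted p-values up to 0.360, and its log2 fold change was -0.24, -0.23 and -0.23 without numbers 3, 8 and 11 and -0.20 without the flank. CDC7 had -0.25, -0.26 and -0.31 without numbers 3, 8 and 11 (0.0902, 0.257 and 0.0523) and -0.19 without the flank (0.0984). Dorsal posterior replicate 11 had the lowest dorsal value of several mitotic genes, and leaving it out gave 10 called members in place of 13, without CDK1 (-0.26, 0.101), CENPK (-0.20, 0.108) and CDC34 (0.57, 0.0502).

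Markers of cell types also differed between back and belly, where 9.31% of all genes tested were called higher and 7.89% lower. Of 12 epidermal markers 8 were higher dorsally, and their summed level was 22032 to 44383 in dorsal and 9141 to 20898 in ventral libraries, without overlap. Of 9 melanocyte markers 7 were higher, with sums of 2634 to 8465 and 1097 to 3032. Of 7 endothelial markers 4 were lower, with sums of 1108 to 3915 and 1718 to 6252, and of 15 dermal markers 3 were higher and 4 lower. None of these markers was at 0 in every dorsal or every ventral library, and 1 neuronal marker was at 0 in all dorsal libraries. Skeletal muscle (0 of 12 called), leukocyte (0 of 5) and erythroid (0 of 2) markers were not called, and of 7 cartilage markers 3 were higher and 1 lower, of 7 neuronal markers 1 each. The part of any of these in the members' differences was not tested.

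Further genes of the same pathways, which the symbol pattern does not take in, were counted from 3 lists. Of 22 genes of mitosis 4 were lower dorsally and 0 higher, against 7.89% and 9.31% of all genes tested, or 12 lower with the block, against 13.9%, and their median was -0.22. CKAP2, a spindle protein gene, ranged from 8518 to 11342 dorsally and 10143 to 15019 ventrally (-0.33, SE 0.063, limma adjusted p = 0.00113). The securin gene PTTG1 (-0.41, SE 0.13), the inhibitor gene of the anaphase-promoting complex FBXO5 (-0.33, SE 0.11) and the spindle gene NUSAP1 (-0.24, SE 0.070) were lower too. Of 23 S phase entries 1 was lower, CHAF1B (-0.35, SE 0.072), a subunit of the factor that places histones on new DNA, or 4 with the block, against the same shares of all genes, and the median was -0.04. Of 10 genes of cycle exit and its drivers limma called 0, with 2 at an unadjusted p below 0.05, and 1 was lower with the block, the atypical cyclin gene CCNG2 (-0.36, SE 0.13). Of the others the CDK inhibitor gene CDKN1B had a log2 fold change of -0.18, SE 0.11, and MYC, a driver of growth and division, had -0.0084, SE 0.25.

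Of these 5 calls each was missing in at least 1 fit with fewer libraries, where its log2 fold change lay between -0.20 and -0.48. Without replicate number 3 the limma adjusted p was 0.0557 for CKAP2, 0.154 for PTTG1, 0.217 for FBXO5, 0.166 for NUSAP1 and 0.0738 for CHAF1B. Without number 8 all but CKAP2 were lost (0.202, 0.280, 0.0835 and 0.0506 in the same order), and without number 11 FBXO5 (0.0561) and NUSAP1 (0.141). Without dorsal posterior replicate 11 the values of PTTG1, FBXO5 and NUSAP1 were 0.0781, 0.0883 and 0.0545.

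**Figure D3:**
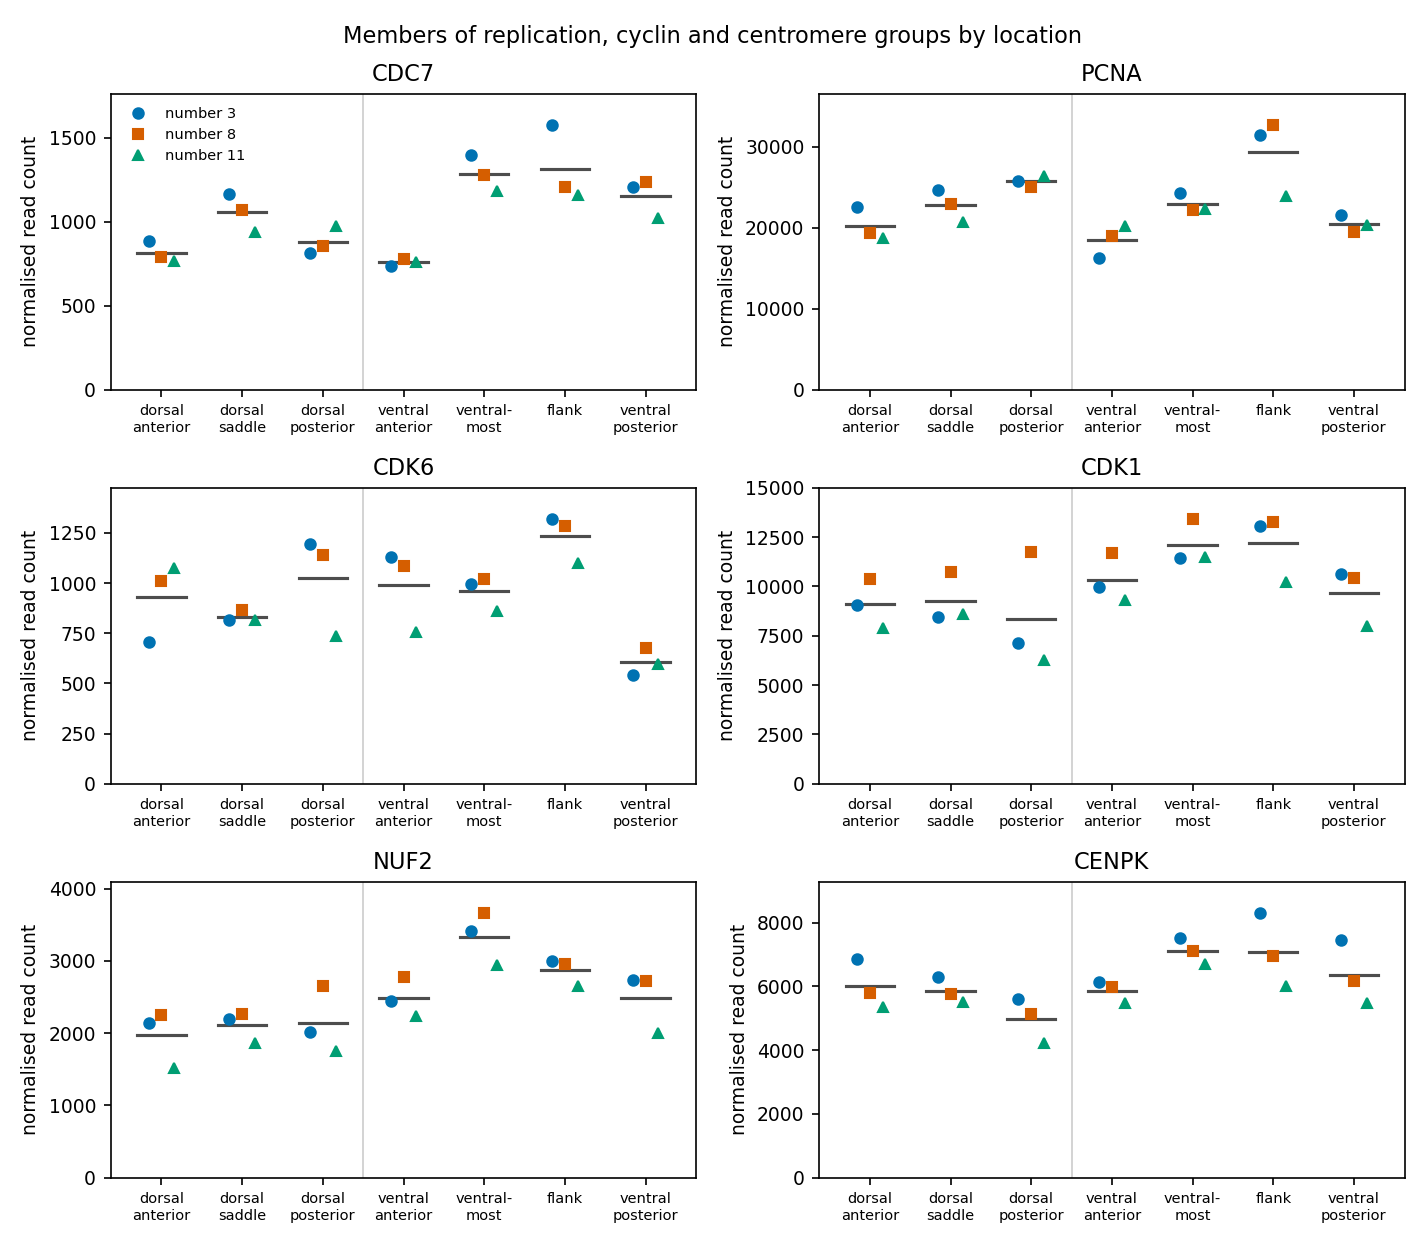
Normalised read counts of CDC7, PCNA, CDK6, CDK1, NUF2 and CENPK in every library at the 7 locations, dorsal to the left of the vertical line, with a bar for the location mean (n = 3) and a symbol for each replicate number. CDC7 had its lowest mean in ventral anterior skin, PCNA and CDK6 had their highest in the flank, and number 11 was the lowest of its location for NUF2 and CENPK at all 7 locations.

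Of all 85 members the 2 largest fold changes between back and belly were those of CDK15 and CDK14, kinases outside the core lists. CDK15 (GSZG0012919, chromosome 7, 21923009 to 21956252), a kinase of the CDK14 subfamily, had 115, 165 and 99.9 in dorsal anterior skin, 82.4, 99.0 and 151 in the saddle and 24.1, 37.6 and 33.9 in dorsal posterior skin. Its ventral values ran from 0 in the number 3 libraries of ventral anterior, ventral-most and ventral posterior skin to 35.3 in flank replicate 8. All dorsal anterior and saddle libraries were above every ventral one, and dorsal posterior replicates 3 and 11 were below that flank library. The mean was 89.7 ± 50.5 dorsally (SD, n = 9) and 8.03 ± 10.7 ventrally (SD, n = 12), a ratio of 11.2 that rests on 92 ventral reads in all (log2 fold change 3.99 on log2(value + 1), SE 0.55, limma adjusted p = 6.38e-05).

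CDK14 (GSZG0005977, chromosome 2, 24075055 to 24391511), a membrane-bound kinase that works with cyclin Y in WNT signalling, was lower dorsally. It had 909.7, 1052 and 975 in ventral anterior skin, and the next highest library was flank replicate 11 at 823. Ventral-most skin had 347, 494 and 431, ventral posterior skin 362, 652 and 493.3, and the other 2 flank libraries 469.6 and 448. Dorsal libraries ranged from 210.1 to 443, which overlaps the ventral-most and ventral posterior libraries but not ventral anterior or flank (log2 fold change -0.82, SE 0.14, limma adjusted p = 0.000679). Its mean was 979 ± 71.2 in ventral anterior and 502 ± 145 in ventral posterior skin (SD, n = 3 each), a difference with SE 0.27 on the log2 scale (limma adjusted p = 0.0743, and 0.00583 with the block).

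CDK8 and CDK19, paralogous kinases of the Mediator complex of transcription, were called in opposite directions. CDK19 (GSZG0009587, chromosome 3, 68598436 to 68695844) ranged from 301 to 417 (median 319) in the 9 dorsal libraries and from 337 to 709 (median 502) in the 12 ventral libraries and was lower dorsally (log2 fold change -0.59, SE 0.096, limma adjusted p = 0.000304). CDK8 (GSZG0000715, chromosome 1, 48524790 to 48594107) ranged from 1143 to 1602 (median 1254) in the 9 dorsal libraries and from 809 to 1469 (median 1029) in the 12 ventral libraries and was higher (log2 fold change 0.31, SE 0.087, limma adjusted p = 0.0177). The groups overlapped for both, for CDK19 through the ventral anterior libraries at 487, 337 and 401. CDK8 was not called without replicate number 3, 8 or 11 (0.26, 0.34 and 0.34, with limma adjusted p = 0.148, 0.0707 and 0.111) or without the flank (0.28, 0.0543). CDK7, CDK9 and CDK13, kinases of RNA polymerase II, had log2 fold changes of -0.019, -0.057 and 0.080 and were not called. With the block CDK17 was higher (0.27, adjusted p = 0.0279) and CDK10 lower (-0.27, 0.0460).

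**Figure D4:**
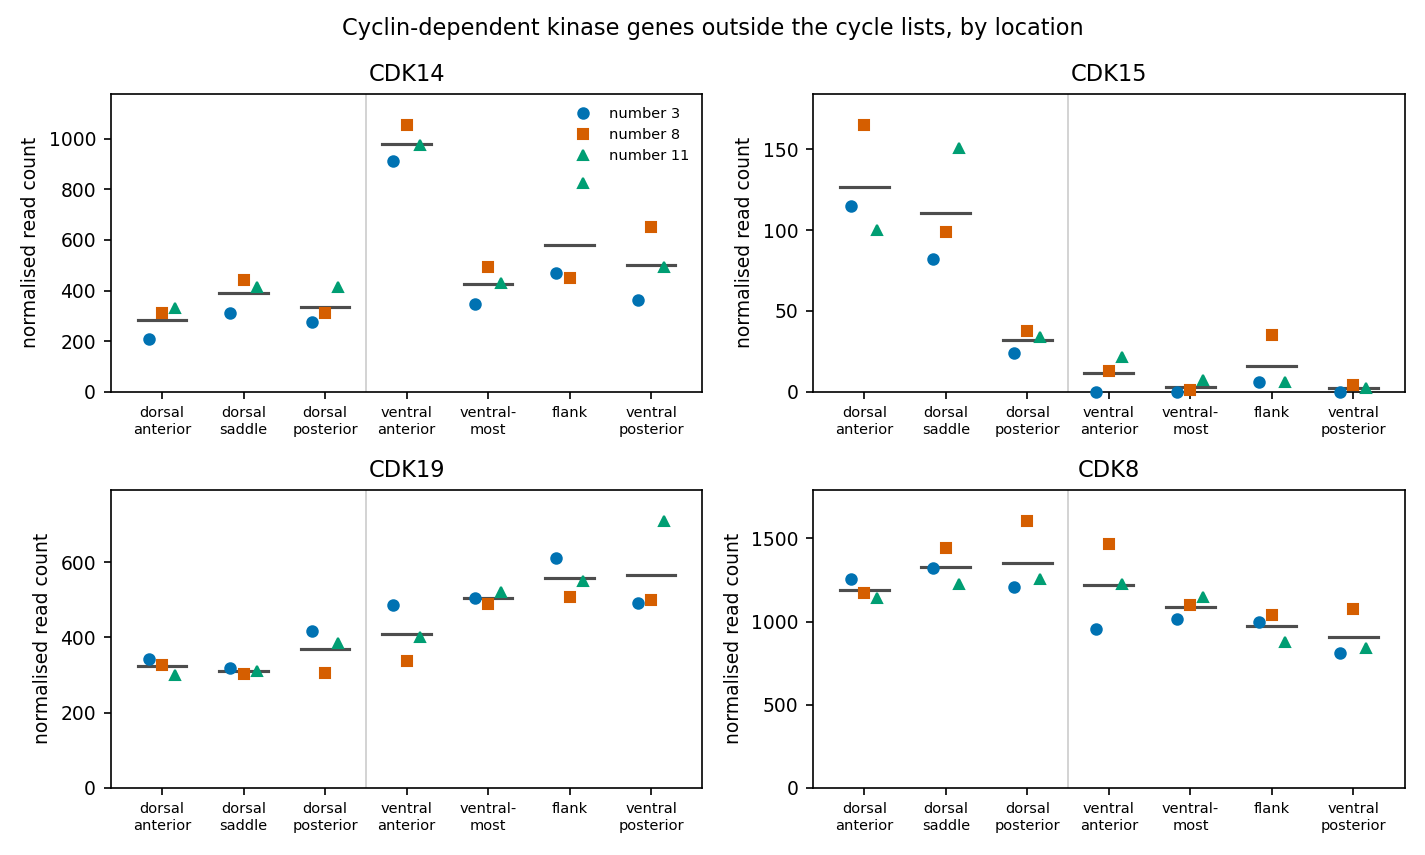
Normalised read counts of CDK14, CDK15, CDK19 and CDK8 in every library at the 7 locations, dorsal to the left of the vertical line, with a bar for the location mean (n = 3) and a symbol for each replicate number. CDK14 was highest in ventral anterior skin, CDK15 was highest in the dorsal anterior and saddle libraries, and CDK19 and CDK8 were called in opposite directions.

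The remaining called members act in ubiquitin transfer, splicing or the cytoskeleton. CDC34, a ubiquitin-conjugating enzyme gene, averaged 319 ± 58.6 dorsally (SD, n = 9) and 218 ± 63.6 ventrally (SD, n = 12) (log2 fold change 0.58, SE 0.17, limma adjusted p = 0.0269), and was not called without replicate number 8 (0.48, 0.324) or 11 (0.52, 0.103). CDC42EP4, an effector of the GTPase CDC42, ranged from 522 to 1219.7 (median 941) in the 9 dorsal libraries and from 931 to 1895 (median 1194) in the 12 ventral libraries (log2 fold change -0.62, SE 0.18, limma adjusted p = 0.0208), and was not called without number 8 (-0.54, 0.183) or 11 (-0.71, 0.101). CDC5L, a splicing factor gene, averaged 3539 ± 431 dorsally (SD, n = 9) and 4201 ± 419 ventrally (SD, n = 12) (log2 fold change -0.25, SE 0.071, limma adjusted p = 0.0196), and was not called without number 3 (-0.22, 0.217) or 8 (-0.24, 0.137). CDC42EP3, a relative of CDC42EP4, was called among the 7 locations (limma adjusted p = 0.0485), and its dorsal against ventral value was -0.21.

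Along the back the division genes of the core were not called. Limma called 1 of 85 between dorsal anterior and dorsal posterior skin, against 2.27% of all genes tested, and 0 of the 62 core members. It was CDC42SE2, a small effector of CDC42 on the Z chromosome, with 1427, 1173 and 1312 anteriorly and 978, 806 and 789 posteriorly (log2 fold change 0.61, SE 0.14, limma adjusted p = 0.0279). It was not called without replicate number 3 (0.64, 0.104), 8 (0.64, 0.295) or 11 (0.54, 0.342), or dorsal posterior replicate 11 (0.55, 0.118). With the block CDC42BPA, a kinase gene of the same pathway, was also higher anteriorly (0.65, SE 0.17, adjusted p = 0.0352), against 5.28% of all genes. CCND1 had 0.39 (SE 0.20, adjusted p = 0.502), CCND2 0.025 (0.999) and PCNA -0.35 (0.203). The 18 genes fixed to be read in every comparison ran from -0.35 (PCNA) to 0.39 (CCND1). All 85 members ran from -0.51 (CCNA1) to 1.95 (CDK15), and neither of these 2 genes was called. Epidermal markers had sums of 36417 to 44383 anteriorly and 22032 to 25576 posteriorly, and their part in these values was not tested.

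Limma called 0 of 85 members in the saddle against the other dorsal locations, where 0.143% of all genes were called and 2 members had an unadjusted p below 0.05 (0 members by edgeR and by DESeq2). The core ranged there from -0.32 (RRM2) to 1.34 (CCNA1), and the 18 genes read in every comparison from -0.32 (RRM2) to 0.30 (KIF11). Skeletal muscle markers had a median of -2.58 there with 0 of 12 called, and their part in these values was not tested. Limma also called 0 of 85 for a difference between the anterior-posterior contrasts of back and belly, against 0.828% of all genes, with 7 at an unadjusted p below 0.05, 0 by edgeR and 1 by DESeq2. The largest differences were -1.23, SE 0.38 for CDK14 and -1.10, SE 0.30 for CDC42EP3, and CCND2 had 0.69, SE 0.22. With the block these 3 were called (limma adjusted p = 0.0215, 0.0346 and 0.0241), against 2.93% of all genes. CCND1 was not, with -0.47, SE 0.28 (0.436 with the block), so its gradient along the belly was not shown to differ from that along the back. These comparisons share libraries with those before.

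More members were called between the replicate numbers than between locations, and so were more of all genes tested. In a model with location and number, limma called 50 of 85 members for a difference among numbers 3, 8 and 11, against 47.7% of all genes tested. For a difference among locations that model called 24 members, against 30.0% of all genes. Of the core 43 of 62 were called and of the other members 7 of 23. What a number stands for is not given in the labels. Core members were lowest in number 11 in 38 of 62 cases, or 61.3%, compared with 31.4% of all genes tested. The median deviation of the core from the location mean was 0.053 in number 3, 0.077 in number 8 and -0.13 in number 11 on the log2 scale, and for all genes tested it was -0.030, 0.018 and 0.0075.

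Kinetochore and kinesin genes were lowest in number 11. All 7 centromere and kinetochore genes had their lowest mean there, as did all 6 mitotic kinesins, and of these 13 limma called 10, leaving CENPV, KIF18A and KIF20A. CENPS, a subunit of the inner kinetochore, ranged from 946 to 1871 in number 3, 842 to 1531 in number 8 and 637 to 969 in number 11 (limma adjusted p = 0.000177). KIF2C had 2475 to 4588, 3202 to 4528 and 1754 to 3337 in the same order (7.31e-05). In all, 11 members were lowest in number 11 at 7 of 7 locations, and these were CENPI, CENPK, CENPS, NUF2, KIF2C, KIF15, PLK1, CDC20, BUB3, CDC45 and RFC3. MCM8 and CDC23 were lowest in number 3 at 7 of 7 locations, and RFC2 and RFC4 in number 8. The share of all genes tested with such a constant order was not counted, so these orders are not shown to be particular to the members. CDC20 had an adjusted p of 0.000219, NUF2 of 0.000556, CENPI of 0.000135 and CENPK of 0.000667. BUB1 ranged from 5012 to 6369.6 in number 3, 6775 to 8786 in number 8 and 3784 to 6195 in number 11 (4.07e-05), and number 8 overlapped neither of the others.

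Clamp and nucleotide genes were lowest in number 11 in 5 of 8 cases, and 7 of 8 were called. Of 15 licensing genes 9 were lowest in number 3, 2 in number 8 and 4 in number 11, where all genes tested gave 39.9%, 28.7% and 31.4%. Of these 15 limma called 7, or 46.7%, which is close to the 47.7% of all genes. ORC5 ranged from 831 to 1457 in number 3, 833 to 1141 in number 8 and 1231 to 1751 in number 11, and was highest in number 11 at 7 of 7 locations (limma adjusted p = 2.82e-05). MCM8, a helicase of DNA repair, had 1246 to 1884, 1809 to 2479 and 2191 to 2786, and CCNE1, the cyclin of S phase entry, 996 to 1348, 1040.3 to 1385 and 1501 to 1901, both highest in number 11 at 7 of 7 locations. CDC42EP4 was highest in number 3 at 7 of 7 locations, with 1053 to 1895, 522 to 1236 and 605 to 1378 (0.000126). The smallest adjusted p of all 85 was that of the clamp loader gene RFC4, with 2009 to 3396 in number 3, 615 to 927 in number 8 and 934 to 1340.4 in number 11, without overlap (adjusted p = 1.43e-08). Pathway genes of mitosis were called for number in 19 of 22 cases, S phase entries in 13 of 23 and genes of exit and its drivers in 5 of 10, against the same 47.7%. The smallest adjusted p-values were those of HMMR (0.000136), LIN54 (0.000137), RACGAP1 (0.000188) and CIT (0.000255) in the first list, GINS1 (7.73e-06), CHAF1A (0.000101), RBL1 (0.000271) and POLE2 (0.000421) in the second and CDKN3 (4.56e-05), CCNG2 (0.00291), MYC (0.00357) and TOB1 (0.0149) in the third. Leukocyte (4 of 5) and melanocyte (6 of 9) markers were also called, and 3 of these 4 and all 6 were highest in number 11. Epidermal (4 of 12), dermal (4 of 15), neuronal (1 of 7) and cartilage (1 of 7) markers were called less often. Endothelial (0 of 7), muscle (0 of 12) and erythroid (0 of 2) markers were not called. The part of any of these markers in the members' differences was not tested.

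**Figure D5:**
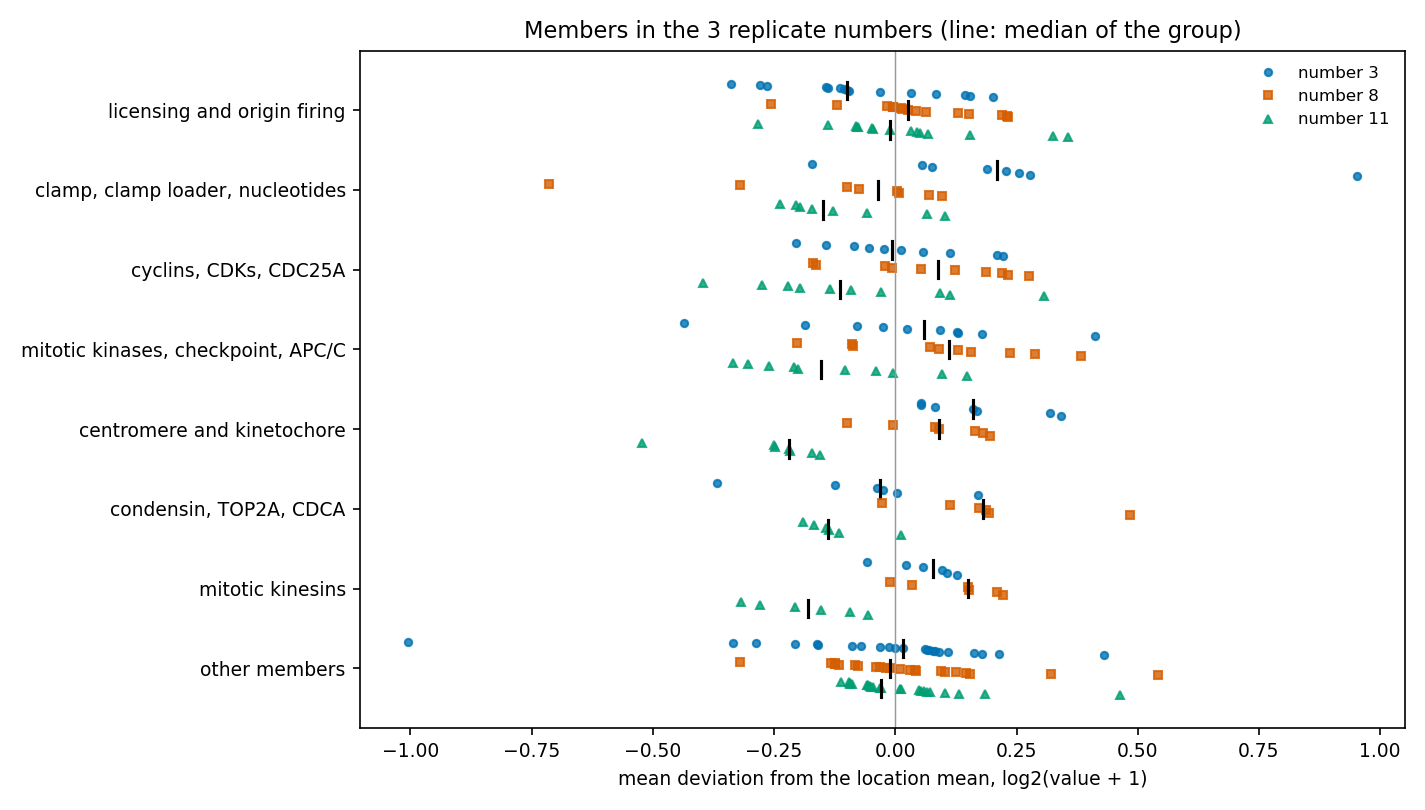
Mean deviation of each member from its location mean on the log2(value + 1) scale, by role and replicate number, each point a member averaged over 7 locations and each black line the median of the group. Points of number 11 lie lowest in the centromere and kinesin groups, and RFC4 in number 3 is the far point of the clamp group.

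Some values are uncertain because reads may be split between entries. For 5 members the table holds a second entry of the same or a like name on unplaced sequence, namely RFC4, MCM6, KIF20A, KIF2C and CENPI. The second RFC4 entry had 896 to 1567 in number 3, 546 to 829.7 in number 8 and 423 to 658 in number 11. The second MCM6 entry had 363 to 566, 131 to 197 and 0 to 3.27 in the same order, and the second KIF20A entry 892 to 1635, 3001 to 4345 and 1004 to 1892, while KIF20A itself was not called for number (limma adjusted p = 0.763). The 6 members PLK1, CDC26, CDK9, CDK3, CENPI and CDC73 overlap other genes, and whether counting used strand is not given in the sources used here. Of these PLK1, CDC26, CDK9 and CENPI lie wholly within an entry on the opposite strand. RefSeq symbols named 83 members, and CCNE2 and CDC20 were named from the deposited description alone.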

How the data were processed

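RNA sequencing libraries of 21 skin samples were read from 1 deposited table. The values are a signal that the authors deposited as size-factor scaled reads per gene, since every value was a whole multiple of 1 step per library, with 100% whole within a tolerance of 0.01. STAR 2.4.0, SAMtools, Picard, FastQC and DESeq2 are listed as tools in the submitters' processing notes. No source used here gives the genome build, the annotation or the read counter. Whole reads recovered from those steps gave 12852638 to 22994609 per library, and the precision of low genes such as CDK15 is limited by these depths.

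Symbols came from RefSeq (assembly bTaeGut7.mat, used for names only) by the deposited Entrez identifier for 83 members, since some deposited symbols were damaged (PCNA, CCNA1 and CCNA2). The other 2 were named from the deposited names. The tests took in 14005 of 18202 genes, those that reached 10 in 3 or more libraries. Limma 3.58.1 in R 4.3.3 (with trend and robust variance) was fitted to log2(value + 1) with 1 mean per location over all 21 libraries, and contrasts gave each comparison. P-values were adjusted by Benjamini and Hochberg over all genes tested, with a threshold of 0.05. For genes with low values the log2 fold changes on this scale depend on the added 1 and can differ from the ratio of means. For CDK15 the log2 fold change of 3.99 was larger than the log2 of its ratio of means, 11.2. Alternatives were other pseudocounts, no filter on low values, TMM scaling, edgeR 4.0.16 and DESeq2 1.42.0 on the recovered reads, a block for replicate number, fewer libraries and, for numbers, no term for location. The statistics were also run on simulated counts, drawn independently between libraries and with an effect of replicate number in few genes. Libraries of the same number deviate together in these data, so that run cannot show how the fit without the block behaves here.

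Libraries of the same replicate number deviated together from their location means, with a correlation across genes of at least 0.27 in every pair, so the numbers pair the samples by these data, and the labels do not say what they mark. The replicate block is given beside results that it changed. For comparisons of locations or sides, the fits with fewer libraries had no block, so they leave this shared deviation in the spread.

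The members and gene lists were chosen with earlier results of these data known. The genes named were, in each comparison, up to 12 called members per direction with the smallest adjusted p, 18 members read in every comparison, the members of highest and lowest mean in each role, and up to 4 called genes from each pathway list. Others, such as members called only with the block and those of a constant order between numbers, were named after their values were seen.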

Additional observations from a re-analysis of the deposited data

Results flagged for a closer look

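In 7 of 61 members tested, 1 of the 9 dorsal libraries stood apart from the other dorsal ones by more than Dixon's test allows, where chance gives about 1 in 20. That rate holds for independent members and like libraries. These 9 libraries come from 3 locations and 3 replicate numbers, and several flags share a library, so the rate is only a rough guide. Dorsal posterior replicate 11 was the lowest for 3 mitotic genes. It had a normalised read count of 2586 for the spindle kinesin gene KIF15, 3020 for the cytokinesis kinesin gene KIF20A and 1133 for the kinetochore gene NDC80. Dorsal anterior replicate 3 was the highest for AURKAIP1, at 3006, and for CDC123, at 2199. Dorsal anterior replicate 11 was the highest for the clamp loader gene RFC1, at 3422, and saddle replicate 8 was the highest for the phosphatase gene CDC14A, at 474. Between dorsal and ventral skin limma without the block called none of these 7 members, while KIF15 was called lower with the block (limma adjusted p = 0.0276) and KIF20A by DESeq2 (adjusted p = 0.0489).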

How the results depend on the processing

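The count of called members moved most with the replicate block and with fewer libraries, and no call changed direction. With the replicate block the count was 24 in place of 10 among the 7 locations, 28 in place of 13 between dorsal and ventral skin, 2 in place of 1 along the back, 5 in place of 3 along the belly, 4 in place of 2 in the flank and 3 in place of 0 for the difference of the anterior-posterior contrasts, and the block changed no count in the saddle. Without 1 replicate number the counts ranged from 1 to 7 among the locations, 6 to 8 between dorsal and ventral skin, 0 along the back and along the belly, 0 to 2 in the flank and 30 to 34 (in place of 50) among replicate numbers, where the number left out is itself a compared group. DESeq2 gave 2 along the back, 6 along the belly and 1 for the difference of contrasts. Fitting only the compared libraries gave 0 along the back, 0 along the belly and 1 in the flank, with fewer libraries to estimate the spread. Leaving out dorsal posterior replicate 11, an alternative chosen after seeing the data, gave 0 along the back and 47 among replicate numbers. For a difference among locations or numbers edgeR and DESeq2 give an adjusted p and no single fold change, so only their calls were compared. The causes of the other shifts were not tested.

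Of 29 calls among locations or sides, 0 were lost with a pseudocount of 0.5 or 10, 3 with no filter, 1 with TMM scaling, 3 with edgeR and 0 with DESeq2. Without replicate number 3, 8 and 11 the losses were 19, 22 and 13, in fits with 2 libraries per location and no block. With the replicate block on all libraries 0 of the 29 calls were lost. A block together with fewer libraries was not tried for these calls. With 3 libraries per location, a member that was not called is not shown to have the same level everywhere.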
